A study of Mus musculus with 16 samples.

Results

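Collagen chain genes were examined in 16 mouse liver RNA samples. The members were all genes whose symbol has the form Col, a type number, a and a chain number, such as Col1a1. Of 19938 genes with a row of their own on the array, 44 were collagen chain genes, and they had 46 rows in all. Col6a5 and Col6a6 had more than 1 row, and the brightest on average was taken for each. The FACIT chain gene Col21a1 had no row with 1 symbol and was not analysed here. By structure the 44 genes comprised 11 fibrillar chains, 9 network-forming chains, 9 fibril-associated (FACIT) chains, 6 beaded-filament chains, 4 transmembrane chains, 2 multiplexins and 3 chains outside these classes.

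The samples were 7 arrays labelled Pdgf-c transgenic and 9 labelled wildtype, all of mouse strain background C57BL/6 and all from liver. The Pdgf-c transgene codes for a growth factor of the PDGF family, whose receptors are found on fibroblasts and hepatic stellate cells, and the series asked about the part of liver stromal cells in tumour formation in these mice. The labels give neither the promoter that drives the transgene nor the age of the mice, and they do not say whether each sample came from a separate animal, so the p-values speak to the variation among the samples at hand, which may be technical. The cell type is labelled as stromal cells, whereas the extraction protocol describes total hepatic RNA. Rows of hepatocyte markers were bright in both groups, with Alb, which encodes albumin, at a mean log2 intensity of 13.5 in the transgenic and 13.6 in the wildtype arrays, so the samples are treated as whole liver. In such bulk RNA, more cells of a type and more RNA per cell cannot be told apart.

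Collagens are secreted matrix proteins whose chains wind around each other in a trimer built from repeats of glycine and 2 other residues. Fibrillar collagens assemble into the cross-striated fibrils that make up scar tissue, FACIT collagens sit on the surface of these fibrils, type IV collagens form the sheet of basement membranes, and type VI collagen forms beaded microfilaments around cells. In liver, stellate cells and portal fibroblasts are the main known sources of fibrillar collagen. Many trimers contain different chains made from separate genes, so the balance between partner chains is of interest beside the level of each.

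Collagen genes rose in part of the family and fell in none of it. In the comparison of transgenic with wildtype arrays, 14 of the 44 genes were higher, 0 were lower and 30 did not pass an adjusted p of 0.05 (limma, Benjamini-Hochberg over all 35557 rows). Among all 19938 genes, 12.1% were called higher and 11.1% lower, so the share of collagen genes called higher was 31.8% against a background of 12.1%. Of the 44 genes, 9 were called higher at 1.5-fold or more, as were 3.78% of all genes, while 0.868% of all genes were called lower at that size. A rise of at least 2-fold was called in 6 of the 44, against 307 of all 19938 genes. In 10 of the 44 genes every transgenic array lay above every wildtype array, which held for 5.43% of all genes; in 0 of the 44 did every transgenic array lie below every wildtype array, against 3.65% of all genes. The median difference over the 44 genes was 0.01 on the log2 scale, close to the median of -0.04 over all genes, and it was -0.04 after quantile normalization or centring. Most members lay near 0 and a minority far above it. At an unadjusted p of 0.05, 2 of the 44 genes, Col13a1 and Col18a1, were lower. The call of a lower collagen gene depended on scaling and on single arrays: Col13a1 was called lower after quantile normalization, after centring arrays on their medians, among rows above the median row, and without transgenic replicate 1 or wildtype replicate 1. Col18a1 was called lower after centring, and Col6a6 without transgenic replicate 1.

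The plot of all 44 differences by class shows the 14 genes in the fibrillar, network, FACIT and beaded classes, with the transmembrane, multiplexin and remaining chains around 0.

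**Figure D1:**
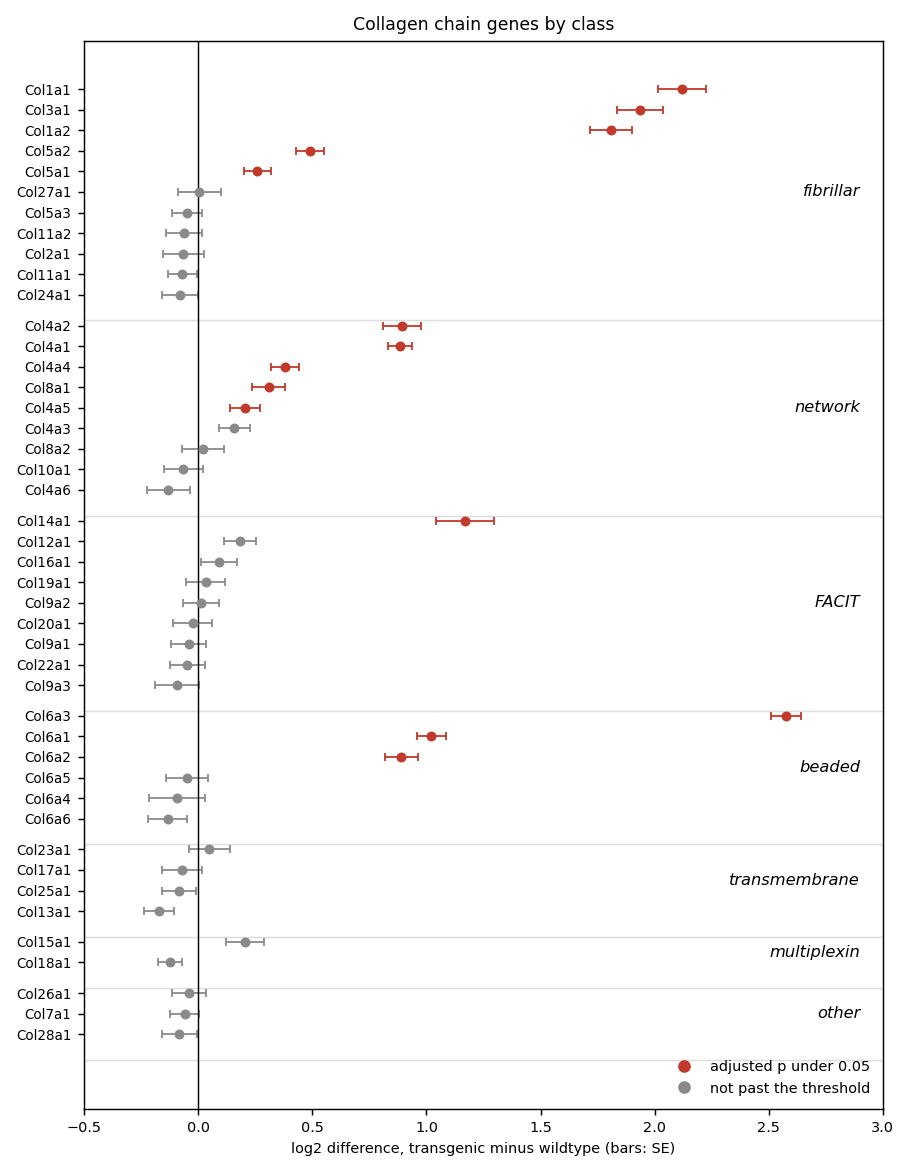
Log2 difference, transgenic minus wildtype, on the horizontal axis for each of the 44 collagen chain genes, grouped by class, with bars for the standard error of the limma fit (7 transgenic and 9 wildtype arrays). Red points mark the 14 genes with an adjusted p under 0.05, which reach from 0.20 (Col4a5) to 2.58 (Col6a3), and grey points mark the 30 others, which lie between -0.17 (Col13a1) and 0.20 (Col15a1).

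The fibrillar chains of types I and III rose most in their class. Col1a1, the alpha 1 chain of type I collagen, had log2 intensities from 6.34 to 7.32 with a median of 6.84 in the wildtype arrays and from 8.72 to 9.24 with a median of 8.98 in the transgenic arrays. Every transgenic array was thus high and the groups did not overlap. The difference was 2.12 ± 0.105 (SE, 7 against 9 arrays), a 4.34-fold rise with an adjusted p of 9.08e-11 (limma). Col1a2, its partner in the type I trimer, lay between 6.45 and 7.21 (median 6.68) in wildtype and between 8.36 and 8.64 (median 8.60) in transgenic arrays. Its groups did not overlap either, and it rose 3.5-fold (1.81 ± 0.0924, adjusted p = 1.37e-10, limma). Col3a1, whose chain forms the homotrimer of type III collagen and shares fibrils with type I, ranged from 6.68 to 7.58 (median 6.95) and from 8.78 to 9.11 (median 8.90). It rose 3.83-fold (1.94 ± 0.102, adjusted p = 2.24e-10, limma), again with no overlap. Among all genes ordered by difference, Col1a1 took place 37, Col3a1 place 56 and Col1a2 place 69.

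Type V chains, which lie inside type I fibrils and limit their diameter, rose by less. Col5a2 went from a wildtype range of 5.24 to 5.51 (median 5.41) to a transgenic range of 5.75 to 6.08 (median 5.83), with no overlap and a difference of 0.49 ± 0.0607 (1.4-fold, adjusted p = 1.09e-05, limma). Col5a1 ranged from 6.14 to 6.45 (median 6.30) in wildtype and from 6.43 to 6.76 (median 6.53) in transgenic arrays. In Col5a1, 6 of 7 transgenic arrays lay above the whole wildtype range, and the difference was 0.26 ± 0.0584 (1.2-fold, adjusted p = 0.00365, limma). The other type V chain gene, Col5a3, stood at -0.05 ± 0.0666 (adjusted p = 0.684, limma).

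The remaining fibrillar genes did not pass the test. These were the cartilage chains Col2a1 (-0.07 ± 0.0892), Col11a1 (-0.07 ± 0.0639) and Col11a2 (-0.06 ± 0.0778), together with Col24a1 (-0.08 ± 0.0784) and Col27a1 (0.0049 ± 0.0950), with adjusted p-values from 0.511 to 0.981 (limma). Of 9 chondrocyte markers, which include the cartilage proteoglycan gene Acan, 0 were called higher and 2, Comp and Matn3, were called lower. Of all genes, 12.1% were called higher and 11.1% lower. The log2 of the summed signal of these markers was 8.25 to 8.45 in transgenic and 8.37 to 8.64 in wildtype arrays. Prg4, with means of 7.14 in transgenic and 7.17 in wildtype arrays, was the brightest row and weighed most in this sum. In all, 5 of 11 fibrillar genes rose and 0 fell.

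Among the beaded-filament chains the 3 classical chains of type VI collagen rose and the 3 later-described chains did not pass the test. The shares over all genes were 12.1% higher and 11.1% lower. Col6a3 encodes the largest of the classical chains. Its log2 intensity was 5.69 to 6.04 (median 5.96) in wildtype and 8.30 to 8.69 (median 8.46) in transgenic arrays. No other collagen gene rose more: the difference was 2.58 ± 0.0639, or 5.96-fold, with an adjusted p of 1.17e-14 (limma), at place 21 of all 19938 genes. Col6a1 ranged from 6.64 to 6.91 (median 6.82) and from 7.62 to 8.14 (median 7.80), a 2.03-fold rise (1.02 ± 0.0646, adjusted p = 2.20e-09, limma). Col6a2 ranged from 5.98 to 6.32 (median 6.23) and from 6.89 to 7.36 (median 7.13), a 1.85-fold rise (0.89 ± 0.0713, adjusted p = 5.26e-08, limma). In none of these genes did the groups overlap. Col6a4, Col6a5 and Col6a6, which encode alternatives to the alpha 3 chain, differed by -0.09 ± 0.122, -0.05 ± 0.0923 and -0.13 ± 0.0867, with adjusted p-values of 0.667, 0.769 and 0.332 (limma). The second rows of Col6a5 and Col6a6 gave -0.03 and 0.05.

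Network-forming chains followed, with 5 of 9 genes higher and 0 lower. Col4a1 and Col4a2 encode the chains of the type IV collagen found in most basement membranes. Col4a1 ranged from 6.44 to 6.65 (median 6.53) in wildtype and from 7.26 to 7.66 (median 7.41) in transgenic arrays. It rose 1.85-fold (0.88 ± 0.0540, adjusted p = 1.40e-09, limma). Col4a2 ranged from 6.14 to 6.69 (median 6.54) and from 7.20 to 7.54 (median 7.41), a 1.86-fold rise (0.89 ± 0.0829, adjusted p = 3.46e-07, limma). The groups did not overlap in either gene.

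The chains of tissue-restricted type IV collagen changed less. Col4a4 went from a wildtype range of 5.50 to 5.87 to a transgenic range of 5.86 to 6.13, with 6 of 7 transgenic arrays above all wildtype arrays and a difference of 0.38 ± 0.0606 (1.3-fold, adjusted p = 0.000162, limma). Col4a5 ranged from 5.36 to 5.76 in wildtype and from 5.68 to 5.93 in transgenic arrays. These ranges overlapped, with 4 transgenic arrays above all wildtype arrays, and the difference of 0.20 ± 0.0647 had an adjusted p of 0.0337 (limma). The Col4a5 call was lost after quantile normalization (adjusted p = 0.154) and centring (0.0830), and without transgenic replicate 1, 3, 5 or 6 or wildtype replicate 2 or 5, as well as without transgenic replicate 1 and wildtype replicate 9 together (0.0843). Col4a3 differed by 0.16 ± 0.0684 and Col4a6 by -0.13 ± 0.0935, with adjusted p-values of 0.128 and 0.386 (limma). Of the short-chain network collagens, Col8a1, found in vessel walls, rose by 0.31 ± 0.0716 (1.24-fold, adjusted p = 0.00450, limma), with 6 of 7 transgenic arrays above all wildtype arrays. Its partner Col8a2 differed by 0.02 ± 0.0919 and the growth-plate gene Col10a1 by -0.07 ± 0.0857 (adjusted p-values 0.916 and 0.668, limma).

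Of 9 FACIT genes, 1 rose (11.1%), near the 12.1% of all genes called higher. Col14a1, whose product binds fibrils of type I collagen, ranged from 7.36 to 8.56 (median 7.96) in wildtype and from 8.86 to 9.29 (median 9.18) in transgenic arrays. The groups did not overlap, and the difference was 1.17 ± 0.128 (2.25-fold, adjusted p = 2.50e-06, limma). It had the largest standard error of all 44 genes, and its wildtype arrays spread over more than 1 log2 unit. Col12a1, the FACIT chain most similar to it in build, differed by 0.18 ± 0.0692 (adjusted p = 0.0754, limma). With values floored at the 20th percentile of the table, or without wildtype replicate 8, Col12a1 was also called higher. The other 7 FACIT genes lay between -0.09 (Col9a3) and 0.09 (Col16a1).

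The transmembrane chains, the multiplexins and the chains outside the classes gave 0 calls among 9 genes. Shares over all genes were 12.1% higher and 11.1% lower. The multiplexins Col15a1 and Col18a1 are basement membrane proteoglycans, and the end of Col18a1 is known as endostatin. Col15a1 was at 0.20 ± 0.0837 (adjusted p = 0.104) and Col18a1 at -0.12 ± 0.0529 (adjusted p = 0.123, limma). Without wildtype replicate 8, Col15a1 was called higher. The transmembrane gene Col13a1 was at -0.17 ± 0.0649 (adjusted p = 0.0781, limma), and the others of that class, Col17a1, Col23a1 and Col25a1, lay between -0.09 and 0.05. The anchoring-fibril chain Col7a1 and the chains Col26a1 and Col28a1 lay between -0.08 and -0.04.

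For the 30 collagen genes that did not pass the test, the 95% intervals of the difference reached from -0.35 at the lowest to 0.38 at the highest, or from 1.27-fold lower to 1.30-fold higher. The interval included 0 in 25 of them, lay above 0 in 3 (Col4a3, Col12a1 and Col15a1) and below 0 in 2 (Col13a1 and Col18a1). Of the 44 genes, 5 had means below the median row of the table (5.25) in both groups, namely Col4a6, Col6a4, Col10a1, Col12a1 and Col19a1, and 0 lay below its 20th percentile (3.45). Detection calls were not analysed here.

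The plot of the 14 genes by array shows how far the groups stood apart: for the 10 genes from Col6a3 to Col5a2 a gap separates the groups, whereas in Col4a4, Col8a1, Col5a1 and Col4a5 they touch or overlap.

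**Figure D2:**
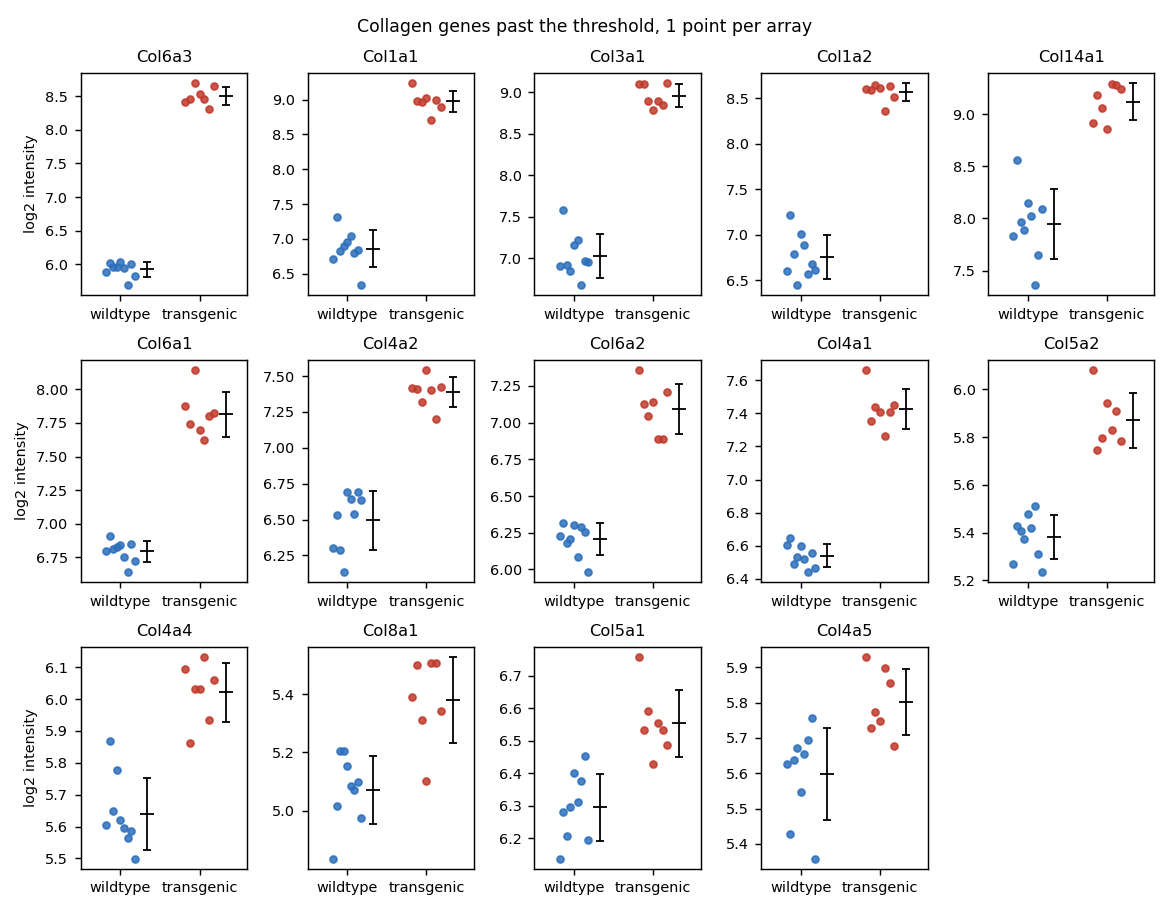
Log2 intensity on the vertical axis, on a separate scale for each gene, for the 14 collagen genes past the threshold. Blue points are the 9 wildtype and red points the 7 transgenic arrays, and the black bar beside each group is its mean with the SD. Col1a1 lies at 6.34 to 7.32 in wildtype and 8.72 to 9.24 in transgenic arrays, while Col4a5 lies at 5.36 to 5.76 and 5.68 to 5.93.

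Upstream sequence is shown for the 3 genes with the largest rises among those with an entry in the RefSeq promoter table (assembly GRCm38.p6), and for Col11a1 as a fibrillar gene that did not pass the test. They were chosen after the values were seen. Each run is the 250 bases before the annotated start, 5′ to 3′ on the gene's strand. Capitals mark a CCAAT box (CCAAT), a GC box (GGGCGG) or a TATA element (TATAAA), searched on both strands. The windows are chr1:90843972-90844221 on the minus strand for Col6a3, and on the plus strand chr1:45311288-45311537 for Col3a1, chr6:4505368-4505617 for Col1a2 and chr3:114030290-114030539 for Col11a1.
Col6a3: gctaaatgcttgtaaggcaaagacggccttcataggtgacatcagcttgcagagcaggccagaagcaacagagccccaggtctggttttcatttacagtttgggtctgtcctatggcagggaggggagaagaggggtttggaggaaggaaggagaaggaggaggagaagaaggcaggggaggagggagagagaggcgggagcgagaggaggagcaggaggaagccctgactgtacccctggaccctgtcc
Col3a1: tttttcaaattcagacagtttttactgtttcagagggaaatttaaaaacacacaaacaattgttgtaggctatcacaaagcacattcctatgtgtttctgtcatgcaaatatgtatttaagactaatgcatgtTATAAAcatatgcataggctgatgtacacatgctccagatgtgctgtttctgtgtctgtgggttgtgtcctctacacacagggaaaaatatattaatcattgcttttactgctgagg
Col1a2: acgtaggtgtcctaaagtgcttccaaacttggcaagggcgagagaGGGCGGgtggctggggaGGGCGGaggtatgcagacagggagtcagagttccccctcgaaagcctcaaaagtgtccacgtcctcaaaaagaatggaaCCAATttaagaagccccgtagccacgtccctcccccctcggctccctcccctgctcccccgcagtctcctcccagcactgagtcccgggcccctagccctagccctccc
Col11a1: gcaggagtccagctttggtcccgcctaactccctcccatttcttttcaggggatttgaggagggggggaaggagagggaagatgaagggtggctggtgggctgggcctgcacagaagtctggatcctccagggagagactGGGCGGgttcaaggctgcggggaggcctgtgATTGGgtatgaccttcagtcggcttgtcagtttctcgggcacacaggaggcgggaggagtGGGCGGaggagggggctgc
Col1a2 held 1 CCAAT box and 2 GC boxes, Col3a1 held 1 TATA element and Col6a3 held none of these letters, so these 3 genes, which rose together, shared none of the motifs in this window. Col11a1 held 1 CCAAT box, on the opposite strand, and 2 GC boxes.

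Of the 44 genes, 35 matched the promoter table, 11 of them among the 14 that rose. A gene with more than 1 window was counted if any of them matched, whereas the shares over the table are per window. A CCAAT box was found in 4 of these 11 and in 9 of the 24 other genes, against 33.8% of all 32851 windows. A GC box was found in 6 of 11 and 15 of 24, against 32.7% of all windows, and a TATA element in 1 of 11 and 4 of 24, against 12.4%. Counted per window, 13 of the 38 collagen windows held a CCAAT box, 22 a GC box and 5 a TATA element. A match describes the letters only. The annotated starts of Col4a1 and Col4a2 lie 21 bases apart on opposite strands, the known head-to-head arrangement of type IV chain genes, and those of Col4a5 and Col4a6 lie 1343 bases apart.

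Whether the rows of paired chains changed by the same amount was read from their log2 ratio within each array, for 12 pairs. Groups were compared with an exact two-sided permutation test over all assignments of 7 of the 16 arrays, adjusted over these pairs. Most pairs are chains of the same trimer, but Col1a1 and Col3a1 share fibrils, and Col15a1 and Col18a1 share only the multiplexin class. The level of such a ratio reflects the probes, and only its change between groups is read. Probes can also affect the size of a change, and that part was not tested. No difference was detected between Col4a1 and Col4a2: the ratio moved by -0.0076 ± 0.0924 (SE; exact permutation adjusted p = 0.936). The rows of type VI chains changed unequally. The ratio of Col6a1 over Col6a3 was 0.80 to 0.95 in wildtype and -0.84 to -0.50 in transgenic arrays, with no overlap, and it shifted by -1.55 ± 0.0602 (exact permutation p = 8.74e-05, the smallest this test can give; adjusted p = 0.000524). The ratio of Col6a1 over Col6a2 moved by 0.13 ± 0.0874 (exact permutation adjusted p = 0.177). The Col6a3 row thus rose by more than the Col6a1 row.

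Rows of fibrillar chains also changed unequally. Col5a1 over Col5a2 was 0.80 to 1.14 in wildtype and 0.48 to 0.79 in transgenic arrays, a shift of -0.23 ± 0.0514 with no overlap (exact permutation adjusted p = 0.000524). Col1a1 over Col1a2 rose by 0.31 ± 0.0767 (exact permutation adjusted p = 0.00629), with overlapping groups. Col1a1 over Col3a1 moved by 0.18 ± 0.0975 (exact permutation adjusted p = 0.126), and passed the threshold without wildtype replicate 7 (0.22, adjusted p = 0.0499).

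In the other type IV pairs the rows moved apart. Col4a5 over Col4a6 rose by 0.34 ± 0.0889 (exact permutation adjusted p = 0.00839), and Col4a3 over Col4a4 shifted by -0.22 ± 0.0785 (adjusted p = 0.0333). The last of these calls was lost without any 1 of transgenic replicates 4 to 7 or wildtype replicates 3, 5, 8 or 9, at -0.21 to -0.20. Col8a1 over Col8a2 rose by 0.29 ± 0.107 (exact permutation adjusted p = 0.0260). That call was lost after quantile normalization (adjusted p = 0.0517) and without transgenic replicate 5 (0.0555) or 6 (0.0635). Col15a1 over Col18a1 rose by 0.33 ± 0.0965 (exact permutation adjusted p = 0.00860), but by 0.21 with an adjusted p of 0.0901 after quantile normalization. The cartilage pairs Col9a1 over Col9a2 and Col11a1 over Col11a2 moved by -0.05 ± 0.0535 and -0.0079 ± 0.0412 (exact permutation adjusted p-values 0.405 and 0.936).

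**Figure D3:**
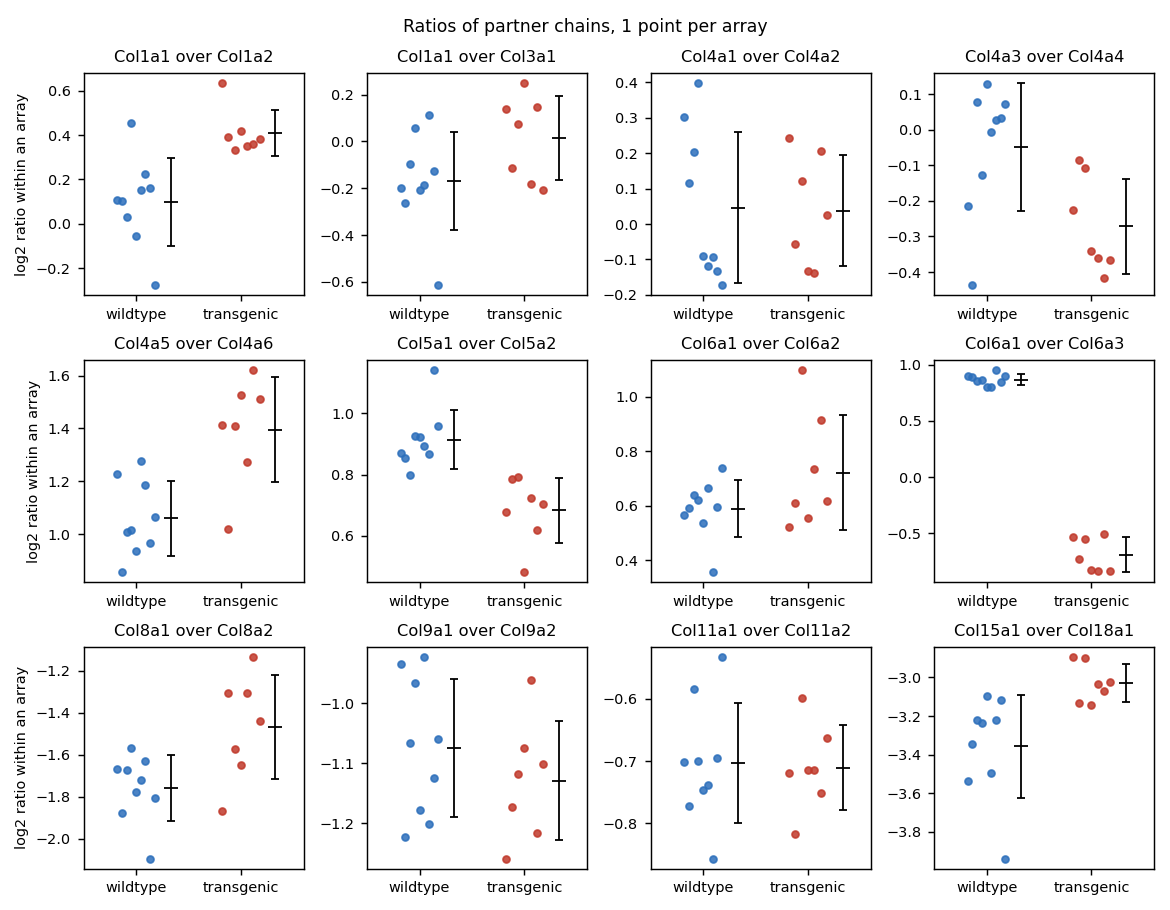
Log2 ratio of the rows of paired chains within an array on the vertical axis, on a separate scale for each of the 12 pairs. Blue points are the 9 wildtype and red points the 7 transgenic arrays, with the mean and SD beside each group. The groups stand apart for Col6a1 over Col6a3 (0.80 to 0.95 against -0.84 to -0.50) and Col5a1 over Col5a2 (0.80 to 1.14 against 0.48 to 0.79) and overlap for the other 10 pairs.

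Within a group, arrays differed in their collagen rows in different ways. Wildtype replicate 2 was the highest wildtype array for 8 of the 14 genes that rose, among them Col1a1, Col1a2, Col3a1 and Col14a1, and lay 0.18 above its group mean on average over the 14. It lay 0.04 above over the 30 other genes. Transgenic replicate 1 was the highest transgenic array for 22 of the 30 genes that did not pass the test, at 0.24 above its group on average. Transgenic replicate 7 was the lowest for 21 of the 30, at -0.23, and wildtype replicate 9 for 21 of the 30, at -0.20. Over the 14 genes these arrays lay at 0.10, 0.01 and -0.12. The medians of the arrays over the whole table ran from 5.20 (wildtype replicate 9) to 5.36 (transgenic replicate 1). Of the 30 genes, 28 lay above their group mean in transgenic replicate 1, 30 below it in transgenic replicate 7 and 27 below it in wildtype replicate 9, where Col18a1, Col5a3 and Col20a1 lay above it.

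**Figure D4:**
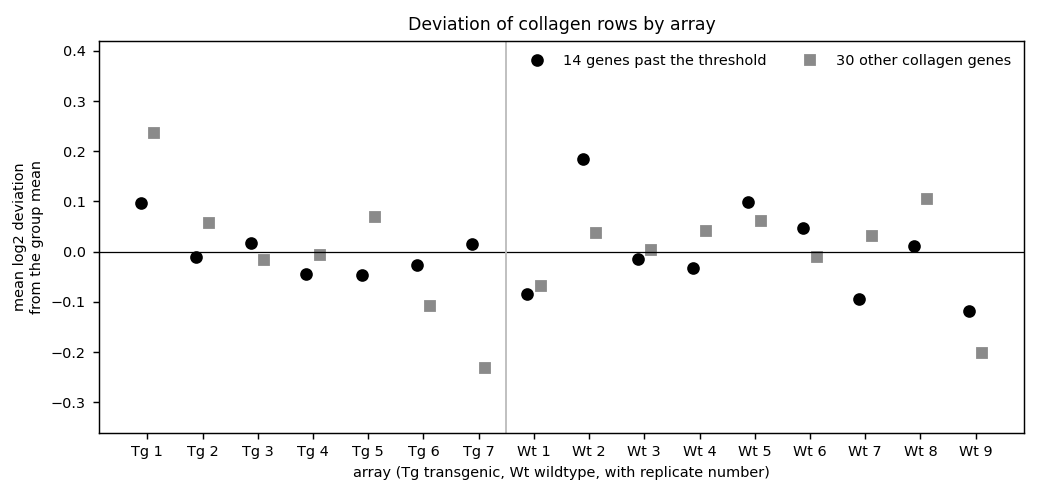
Mean log2 deviation from the group mean on the vertical axis for each of the 16 arrays, over the 14 collagen genes past the threshold (black circles) and over the 30 others (grey squares). The 30 genes reach 0.24 in transgenic replicate 1 and -0.23 in transgenic replicate 7, while the 14 genes are highest, at 0.18, in wildtype replicate 2.

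Correlation of paired chains across arrays was computed within each group for the 6 pairs in which both genes rose. These 12 relations were computed after the values were seen. Col6a1 and Col6a3 were correlated over the 9 wildtype arrays (Pearson's r = 0.923, exact permutation p = 0.000634, adjusted 0.00761; Spearman's rho = 0.933, exact p = 0.00075, adjusted 0.00899). Without the 2 arrays farthest from the median of Col6a1, r was 0.845. Over the 7 transgenic arrays r was 0.506 (rho = 0.286) for this pair, with exact permutation adjusted p-values of 0.399 and 0.741. The other 10 relations had exact permutation adjusted p-values of at least 0.215 for Pearson's r and 0.266 for rho, with r from 0.014 (Col4a1 and Col4a2, wildtype) to 0.764 (Col1a1 and Col1a2, transgenic). Arrays share their scaling, and the part of that in these correlations was not tested.

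Some markers of collagen-producing cells were higher in the transgenic arrays, as the collagen genes were. Over all genes, 12.1% were called higher and 11.1% lower. Of 12 stellate cell markers, 8 were higher and 2, Ecm1 and Vipr1, lower, while Ngfr and Lhx2 did not pass the test. Ecm1 was the brightest of these 12 rows, at means of 9.39 in transgenic and 9.92 in wildtype arrays. The log2 of the summed signal was 11.5 to 11.9 in transgenic and 10.8 to 11.3 in wildtype arrays. Of 11 fibroblast markers, 6 were higher and 0 lower, at 10.2 to 10.5 against 8.74 to 9.05, while Thy1, Gli1, Entpd2, Clec3b and Pi16 did not pass the test. Pdgfra and Cd34 were the brightest of these rows in the transgenic arrays. Their means were 8.78 and 8.12 there and 5.61 and 4.97 in wildtype arrays. Smooth muscle markers were higher in 3 of 7 genes, Tagln, Acta2 and Smtn, and lower in none, at 8.67 to 9.05 against 8.17 to 8.35. Myh11 (0.05), Cnn1 (-0.13), Actg2 (0.03) and Myocd (-0.08) did not pass the test. Tagln was the brightest of these rows in the transgenic arrays, at a mean of 7.34 against 5.94 in wildtype arrays. Pan-endothelial markers were higher in 2 and lower in 1 of 7 genes, and their summed signal overlapped between the groups (9.65 to 9.97 and 9.63 to 9.94). Macrophage markers were higher in 2 and lower in 1 of 4 genes, the fall being Clec4f at -2.70 (summed signal 9.18 to 9.62 against 9.68 to 10.5). Clec4f was the brightest of these rows in wildtype arrays, at a mean of 9.17, and weighed most in their sum. Csf1r (0.38) and Cd68 (0.47) were higher, and Adgre1 (0.26) did not pass the test. Mesothelial markers were higher in 1 of 5 (7.47 to 7.79 against 7.32 to 7.60), and cholangiocyte markers in 0 of 3 measured genes (6.71 to 6.93 against 6.64 to 6.91). Hepatocyte markers were higher in 1 and lower in 2 of 7 genes, and their summed signal overlapped between the groups. No marker in these lists lay below the 20th percentile of the table in both groups. The part of cell numbers in the collagen differences was not tested. The Pdgfc row was 1.36-fold higher (0.44 ± 0.0873, adjusted p = 0.00132, limma). Whether its probes read the transgene is not given in the sources used here.

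Genes that fold, process, bind and cut collagen were called higher in part. Over 4 lists chosen with results of these data known, 23 of 49 measured genes were higher and 6 lower, against 12.1% and 11.1% of all genes, with a median difference of 0.14 against -0.04 over all genes. Among 20 genes listed under folding and hydroxylation of the chains, 8 rose and 5 fell. The list also held genes of other steps, such as Tmem38b, Ctage5 and Mia3. Plod2, the lysyl hydroxylase of the telopeptides, rose 3.3-fold (1.72 ± 0.118), the collagen chaperone gene Serpinh1 2.03-fold (1.02 ± 0.0706), and Crtap, a partner of the prolyl 3-hydroxylases, 2.01-fold (1.01 ± 0.0671). The falls were small: Tmem38b was at -0.24 ± 0.0633, Plod1 at -0.18 ± 0.0583 and Ctage5 at -0.17 ± 0.0546. Limma adjusted p-values were at most 8.07e-09 for these 3 rises and at most 0.0359 for these falls. The number of falls in this list was 2 to 5 with 1 array left out.

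Of 12 genes for propeptide processing and cross-linking, 5 rose and 1 fell, against 12.1% higher and 11.1% lower over all genes. Loxl1, a lysyl oxidase, rose 6.01-fold (2.59 ± 0.0814), the procollagen C-proteinase enhancer gene Pcolce 2.78-fold (1.48 ± 0.0782) and the collagen-binding matrix gene Sparc 2.66-fold (1.41 ± 0.0887). Pcolce2, a second enhancer of the same protease, was 2.25-fold lower (-1.17 ± 0.158, adjusted p = 2.89e-05, limma), with no overlap of the groups. The protease itself, Bmp1, was at -0.15 ± 0.0596 (adjusted p = 0.0965, limma).

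Of 9 collagen receptor genes, 6 rose and 0 fell. For these and the proteases below, the shares over all genes were 12.1% higher and 11.1% lower. The endocytic receptor gene Mrc2 rose 2.95-fold (1.56 ± 0.0899), the tyrosine kinase receptor gene Ddr2 2.49-fold (1.31 ± 0.0949) and the integrin gene Itga1 1.8-fold (0.84 ± 0.0600). Of 8 genes for collagen-degrading proteases, 4 rose and 0 fell, namely the gelatinase Mmp2 at 4.98-fold (2.32 ± 0.0796), the cathepsin Ctsk at 2.72-fold (1.45 ± 0.0881), the membrane-bound collagenase Mmp14 at 1.54-fold (0.63 ± 0.0715) and the collagenase Mmp13 at 1.3-fold (0.38 ± 0.109). Limma adjusted p-values were at most 1.35e-08 for these receptors and at most 0.0196 for the proteases. Mmp1a and Fap lay below the 20th percentile of the table in both groups. In the plot of these genes, each list holds members far above 0 beside members near 0.

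**Figure D5:**
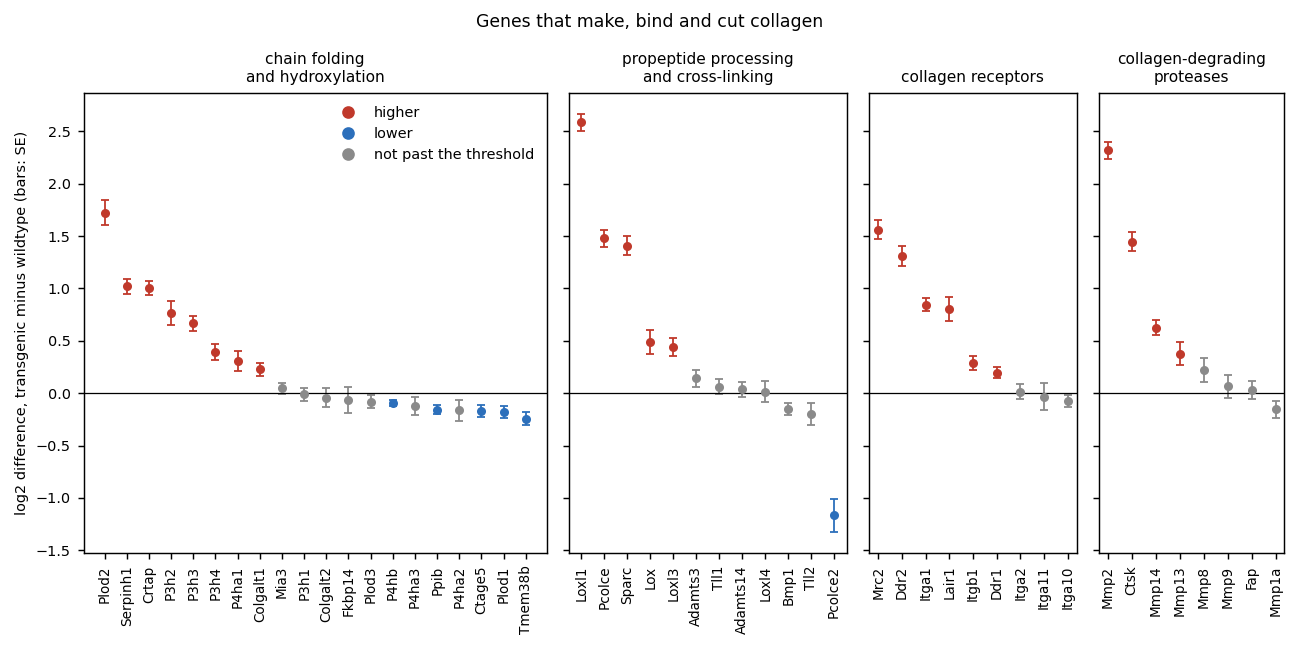
Log2 difference, transgenic minus wildtype, on the vertical axis for 49 genes that make, bind or cut collagen, in 4 lists, with bars for the standard error of the limma fit. Red points are higher and blue points lower at an adjusted p of 0.05, and grey points did not pass. Loxl1 at 2.59 and Mmp2 at 2.32 are the largest rises and Pcolce2 at -1.17 the largest fall.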

How the data were processed

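The study used 16 Affymetrix Mouse Gene 1.0 ST arrays, 1 for each sample, per the labels' protocols. The authors deposited log2 values, for which the submitters' processing notes name GCRMA, a method of background correction, quantile scaling and probe-set summary for Affymetrix arrays. Its version and the genome build are not given in the sources used here, and the log base was inferred from the range of 0.71 to 14.7. Of 35557 rows, 21789 had 1 symbol, 1621 several and 12147 none listed.

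A linear model in limma 3.58.1 (R 4.3.3; eBayes with trend, two-sided, 14 residual degrees of freedom) was fitted to all rows with no filter, with Benjamini-Hochberg adjustment over them. Tested on simulated data for this comparison (35557 rows, 50 changed per size), the fit found 18% of changes of 1.25-fold and 68% of those of 1.5-fold. It found 94% at 2-fold, 100% at 4-fold and made 8 calls in rows left unchanged. A far smaller share of rows was changed there than was called in these data (23.2% of genes). The adjusted threshold was therefore stricter, and these rates need not hold for the data. The number of arrays limits the precision. Chain ratios and correlations were tested with exact permutations written in Python 3.11.15 with pandas 2.3.3, with ranks from scipy 1.17.1. Named were all collagen genes past the threshold, others sharing a trimer or class with them, up to 3 called genes per pathway list and direction, Pdgfc and Alb; Mmp13, Bmp1 and single markers were added after their values were seen. The members and lists were chosen with earlier results of these data known. Alternatives were other scalings, row filters, variance models, array weights, a floor, means over rows, a replicate block and arrays left out.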

Additional observations from a re-analysis of the deposited data

Results flagged for a closer look

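Among 112 groups of values (44 genes and 12 chain ratios in each of 2 groups), 10 held an array far from the others by Dixon's criterion, which chance alone meets in about 1 of 20 groups. Wildtype replicate 9 was the lowest wildtype array, set apart from the rest, in 7 genes that did not pass the test: Col2a1 at 6.34, Col11a2 at 5.90, Col9a2 at 6.47, Col6a4 at 4.51, Col23a1 at 5.81, Col7a1 at 6.07 and Col26a1 at 5.83. Transgenic replicate 1 was set apart as the highest transgenic array in Col8a2, at 7.26, and in the log2 ratio of Col1a1 over Col1a2, at 0.63. Wildtype replicate 8 was the highest in the ratio of Col5a1 over Col5a2, at 1.14.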

How the results depend on the processing

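Between 13 and 16 collagen genes were called over all settings. Of the 14, Col4a5 lost its call in 10 settings and Col8a1 was not among the brighter rows; the other 12 were called in every setting. No called gene or ratio changed sign. The median difference of the collagen genes, 0.01, lay near 0 and was negative in 9 settings, down to -0.07, among them quantile normalization and centring (-0.04 in both). Col8a2, Col9a2, Col19a1, Col20a1, Col27a1 and the ratios Col4a1 over Col4a2 and Col11a1 over Col11a2, none of them called, also changed sign in some settings. Collagen genes called lower numbered 1 after quantile normalization, 2 after centring, 1 among rows above the median row, 2 without transgenic replicate 1 and wildtype replicate 9 together, and 0 to 2 with 1 array left out. By class the lower calls were 1 transmembrane gene in each of those 4 settings, 1 multiplexin after centring and 1 beaded gene with both arrays out; with 1 array out they were 0 to 1 for transmembrane and for beaded genes. FACIT genes called higher numbered 2 with the floor and 1 to 2 with 1 array out, and multiplexins 0 to 1. Centring raised the genes called lower over the whole table from 2209 to 3350 and moved the median of all genes from -0.04 to -0.09. Genes of the folding list called lower numbered 3 without the variance trend, 3 with both arrays out and 2 to 5 with 1 out. Processing genes called lower numbered 2 after centring, 0 among brighter rows and 1 to 2 with 1 out.

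After quantile normalization, Col8a1 over Col8a2 (0.29) and Col15a1 over Col18a1 (0.21) lost their calls, as did Col4a3 over Col4a4 with both arrays out (-0.21). With 1 array out, Col1a1 over Col3a1 ran from 0.13 to 0.22, Col4a3 over Col4a4 from -0.27 to -0.20 and Col8a1 over Col8a2 from 0.23 to 0.36. Replicate numbers did not pair the arrays: deviations of same-numbered arrays correlated at -0.02 to 0.09 over 7 pairs, and 0 arrays matched their own number best. With the number as a replicate block, 13 collagen genes were called and 1 gene of the folding list was lower. Under the block, Col1a1 over Col1a2 was at 0.27, Col4a3 over Col4a4 at -0.19 and Col8a1 over Col8a2 at 0.23, all past the threshold no longer; fewer arrays enter that test. The cause of the other changes was not tested.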
